A study of Mus musculus with 24 samples.

Results

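The effect of losing the transcription factor FoxO1 from hepatocytes was compared between an acute and a constitutive deletion in livers of fasted mice. The measure was a difference of 2 differences, computed for each gene on log2(FPKM + 1): the acute effect (Cre minus GFP) less the constitutive effect (KO minus WT). FPKM is a fragment count corrected for the length of the transcript and for how much of the library was mapped. A value above 0 means that the knockout was higher relative to its own control in the acute model than in the constitutive one, and a value below 0 the reverse. All fasted libraries entered, 12 of the 24 in the series, and 10682 genes were tested.

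All mice were C57BL/6 and carried floxed Foxo1 alleles (FoxO1lox/lox). In the acute model mice were given, through the tail vein, an adeno-associated virus, AAV8.TBG.Cre (Cre) or AAV8.TBG.eGFP (GFP), and livers were taken on day 21; the TBG promoter is active in hepatocytes. In the constitutive model an Albumin-cre transgene, active in hepatocytes from perinatal life on, gave the FoxO1-/- livers (KO), and the wild type group (WT) had the floxed alleles but no Cre. Fasting lasted 4 h in each group, and each of the 4 groups held 3 libraries. The acute controls had received virus and the wild type mice had not. Virus, model and whatever else set the models apart therefore cannot be told apart in a comparison of the controls or of the knockouts. The difference of effects takes each knockout against its own control. In it, the time of deletion cannot be told apart from the way Cre was delivered and the kind of control. Age and sex are not in the labels.

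FoxO1 is held in the cytoplasm of hepatocytes when insulin is high and enters the nucleus in fasting, where it binds DNA at the insulin response element and raises genes of gluconeogenesis and glucose release. In liver it is also known to raise the insulin receptor substrate Irs2 and the secreted binding protein Igfbp1. An early deletion and a late one are common alternatives in mice, and their effects on transcripts need not be the same.

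The libraries differed in depth. A relative depth, with the mean of the series at 1, could be read from the steps between low values: GFP fasted 3 (1.30) and Cre fasted 1 (1.16) lay near the constitutive libraries (1.1 to 1.23), while the other 4 acute libraries lay between 0.549 and 0.668. Total depth is unknown, so no counting interval is given. Correlations of log2 values between replicates lay between 0.967 and 0.987 over the 4 groups. Nothing in the labels ties each library to an animal of its own, and the p-values measure spread between libraries that may be technical. In summed markers of endothelial cells, GFP fasted 2 lay well below the other GFP libraries. Cre fasted 1, a deeper library, was the highest of the Cre libraries, which were evenly spread. Results that rest on these 2 libraries are given with and without them.

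Foxo1 itself (chromosome 3, 52268337 to 52350109, mm10) was lost to a similar level in both models. Its level was 4.49, 4.33 and 4.58 FPKM in the GFP livers and 0.396, 0.212 and 0.360 FPKM in the Cre livers. It was 4.21, 5.87 and 5.92 FPKM in wild type and 0.341, 0.494 and 0.465 FPKM in KO livers. Knockout and control libraries were separate in each model, and the 2 knockouts overlapped. The difference of effects was 0.08 ± 0.16 on the log2 scale (SE), with a 95% interval from -0.25 to 0.42. The closest relatives of FoxO1 gave differences of -0.21 (Foxo3, interval -0.79 to 0.36) and -0.17 (Foxo4, interval -0.49 to 0.16).

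Promoters of 3 genes that FoxO1 is known to raise, G6pc, Igfbp1 and Irs2, are shown because they held the motif searched for. Their knockout and control libraries were separate in both models for G6pc, in the constitutive model for Igfbp1 and in the acute model for Irs2, as described further on. Each runs from 250 bases before to 50 bases after the gene's start in RefSeq on GRCm38.p6, the mm10 build, 5′ to 3′ in the direction of transcription. Capitals mark the core of the insulin response element, CAAAACA, which reads TGTTTTG where it lies on the other strand. The windows are chr11:101367466-101367765 (plus strand) for G6pc, chr11:7197537-7197836 (plus strand) for Igfbp1 and chr8:11008880-11009179 (minus strand) for Irs2.
G6pc: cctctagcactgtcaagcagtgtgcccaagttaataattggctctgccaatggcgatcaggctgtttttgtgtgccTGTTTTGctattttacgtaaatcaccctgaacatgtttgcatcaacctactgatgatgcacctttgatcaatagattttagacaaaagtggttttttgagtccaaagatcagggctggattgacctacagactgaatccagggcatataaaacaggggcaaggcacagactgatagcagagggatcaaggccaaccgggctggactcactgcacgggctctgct
Igfbp1: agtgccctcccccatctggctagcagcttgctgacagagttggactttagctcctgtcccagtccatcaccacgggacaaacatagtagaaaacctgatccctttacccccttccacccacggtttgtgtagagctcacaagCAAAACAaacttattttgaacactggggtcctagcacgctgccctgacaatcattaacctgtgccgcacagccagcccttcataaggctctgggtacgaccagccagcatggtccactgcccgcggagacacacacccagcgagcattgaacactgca
Irs2: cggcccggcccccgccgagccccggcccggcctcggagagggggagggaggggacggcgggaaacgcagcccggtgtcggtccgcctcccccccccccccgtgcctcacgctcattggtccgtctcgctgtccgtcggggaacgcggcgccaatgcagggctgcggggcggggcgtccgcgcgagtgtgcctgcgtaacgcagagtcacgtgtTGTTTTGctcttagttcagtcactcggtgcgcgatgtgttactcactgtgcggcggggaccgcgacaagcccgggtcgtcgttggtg
The match began 174 bases before the start in G6pc, 108 before it in Igfbp1 and 37 before it in Irs2. CAAAACA was searched on both strands and was present in 6.28% of 32851 RefSeq promoters of the same length. The other FoxO motif searched, GTAAACA, was in 3.65% of them and in none of these 3 windows. Of 19 genes looked up, 12 had a promoter in the table and these 3 held CAAAACA. Slc37a4, Cyp2b10, Pck1 and Fgf21, whose knockout and control libraries were separate in at least 1 model, were among the 9 without it. A match describes the letters of this window and is not a measured binding site.

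No gene passed the test of the difference of effects at an adjusted p under 0.05 (limma, Benjamini-Hochberg over all genes; 0% of genes called). The smallest adjusted p was 0.0636, and 839 genes (7.85%) had an unadjusted p under 0.05, 300 above 0 (2.81%) and 539 below (5.05%). The median SE of a difference was 0.166 on the log2 scale. In simulated data of this design 20.9% of genes changed 1.5-fold, 67.2% changed 2-fold and 89.4% changed 4-fold were called, so the absence of calls does not show that the models responded alike. The number of calls depended on 2 libraries: 45 genes (0.422%) were called without GFP fasted 2 and 30 (0.281%) without Cre fasted 1. Limma with array weights called 4 genes (0.0374%), robust limma 4 (0.0374%), a covariate for depth 9 (0.0843%), and the fit without the deeper acute libraries 4 (0.0377%); the count at an adjusted p under 0.10 was 7 (0.0655%).

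The arms themselves differed in how many genes they moved. In the same fit the acute effect was called for 144 genes (1.35%), 66 higher (0.618%) and 78 lower (0.73%) in Cre livers, and the constitutive effect for 2 (0.0187%), both lower in KO livers. The acute count fell to 61 without GFP fasted 1, 26 without GFP fasted 3, 22 without Cre fasted 2, 71 without Cre fasted 3 and 32 without the deeper libraries, and the constitutive count lay between 1 and 3. A count of calls in each arm is not a test of their difference; for 98 of the 144 the unadjusted p of the difference was under 0.05, but these genes had been chosen by their acute effect. Across the 10682 genes the 2 effects had a Pearson correlation of -0.0398 and a Spearman correlation of 0.103, and 53.4% of genes had the same sign in both. Genes are not independent replicates, and the arms share no library.

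**Figure D1:**
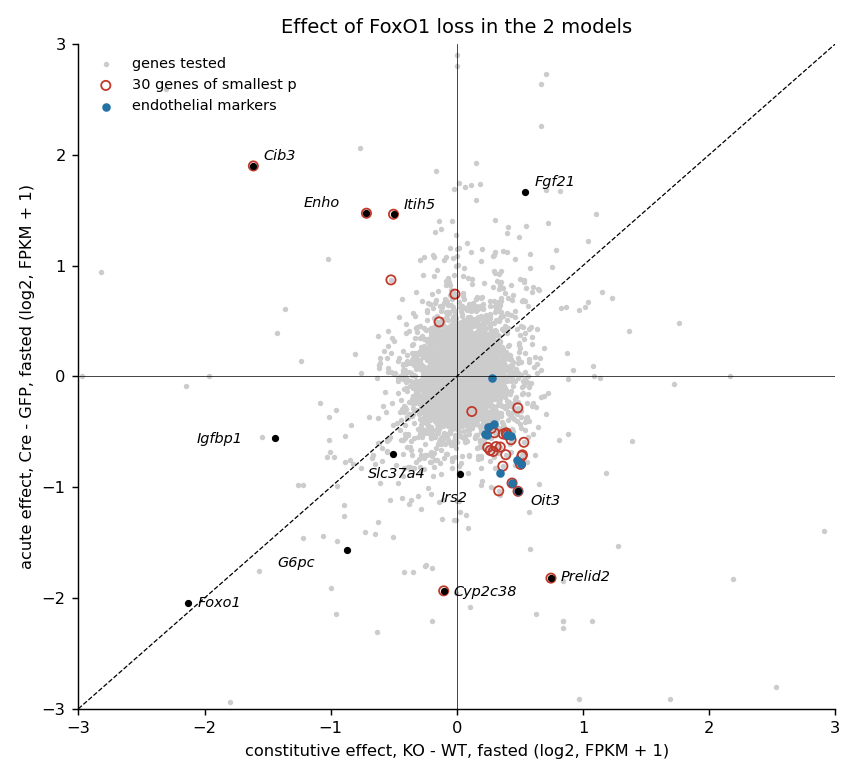
Effect of FoxO1 loss for each gene in fasted livers, acute (Cre minus GFP, vertical) against constitutive (KO minus WT, horizontal), on log2(FPKM + 1). The dashed line marks equal effects, red rings the 30 genes of smallest p in the difference, blue points 12 endothelial markers, and 16 genes lie outside the axes; Foxo1 lies on the line and most red rings lie in the quadrant below and to the right of 0.

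Besides Foxo1, the gene called in both arms was B930025P03Rik (chromosome 8, 10870422 to 10882454), an unannotated locus that lies close to Irs2 and was chosen for mention after its values were seen. Its level was 2.25, 2.69 and 2.10 FPKM in GFP and 0.570, 0.753 and 0.733 FPKM in Cre livers, and 2.12, 1.98 and 1.83 FPKM in wild type and 0.560, 0.573 and 0.480 FPKM in KO livers. Knockouts lay below controls without overlap in both models. The effects were -0.99 and -0.95 (limma adjusted p = 0.00173 and 0.00991), and they differed by -0.04 ± 0.20 (interval -0.46 to 0.38).

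The acute calls had smaller constitutive values, mostly of the same sign. Of the 66 genes higher in Cre livers, 46 were above 0 in the constitutive effect, with a median of 0.74 in the acute and 0.08 in the constitutive model. Of the 78 lower genes, 54 were below 0, with medians of -0.71 and -0.17. The effect was larger in the acute model for 142 of the 144; the selection on the acute effect favours this.

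The genes of smallest p in the difference were, with few exceptions, genes whose effects had opposite signs in the models. Of the 30 leading genes, 6 were above 0 and 24 below. The 2 effects had opposite signs for 29 of them (all except Cyp2c38), the acute effect was the larger for 29 (all except Casp1), 20 were called in the acute effect and 0 in the constitutive effect. The libraries of 16 of them were separate in both models and in opposite directions, which was so for 89 of all genes (0.833%; 60 lower in Cre and higher in KO, 0.562%, and 29 the reverse, 0.271%). Over all genes Cre and GFP libraries were separate for 18.6% and KO and WT libraries for 12.3%. Selection by the difference favours opposed signs, so these counts describe the genes. Adjusted p-values (limma) ran from 0.0636 to 0.212.

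Enho, which encodes the secreted peptide adropin, had the smallest p. Its level was 9.02, 12 and 11.9 FPKM in GFP livers and 33.7, 38.4 and 25.3 FPKM in Cre livers, against 18.3, 9.94 and 10.1 FPKM in wild type and 6.66, 6.51 and 8.19 FPKM in KO livers. All Cre libraries lay above all GFP libraries and all KO libraries below all wild type libraries. Enho rose 2.96-fold with acute loss (log2 1.47, limma adjusted p = 0.00898), and its mean in KO livers was 0.557 of wild type (log2 -0.72, adjusted p = 0.97). The difference of effects was 2.19 ± 0.38 (interval 1.41 to 2.97, limma adjusted p = 0.0636, and 0.0153 to 0.198 over 23 alternatives, 5 of which called it).

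Itih5 and Hist1h4i had the same pattern at low levels. Itih5, a heavy chain of the inter-alpha-trypsin inhibitor family of matrix proteins, was at 0.101, 1.17 and 0.0245 FPKM in GFP and 2.17, 3.61 and 2.52 FPKM in Cre livers, and at 1.60, 2.12 and 1.2 FPKM in wild type and 0.834, 0.933 and 0.773 FPKM in KO livers. It rose with acute loss (log2 1.46, limma adjusted p = 0.00511) and differed between models by 1.97 ± 0.34 (adjusted p = 0.0636). Hist1h4i, a histone H4 gene, was at 0.985, 0.927 and 1.53 FPKM in GFP, 2.5, 3.28 and 2.96 FPKM in Cre, 2.36, 1.93 and 1.48 FPKM in wild type and 0.931, 1.54 and 0.681 FPKM in KO livers. Cre and GFP libraries did not overlap, while KO and wild type did. Its difference was 1.39 ± 0.25 (adjusted p = 0.0636); histone H4 genes are near-identical copies, and how the authors' counting divided reads between them is not given, so its values are uncertain.

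Cib3, which encodes a calcium- and integrin-binding protein, had the largest difference of the 30 genes and also a wide error. Its level was 5.09, 7.58 and 4.64 FPKM in GFP, 11.5, 27.5 and 42.0 FPKM in Cre, 28.3, 15 and 25.7 FPKM in wild type and 9.68, 9.54 and 2.90 FPKM in KO livers. The groups were separate in both models, in opposite directions. The difference was 3.51 ± 0.86 (interval 1.71 to 5.32, limma adjusted p = 0.212). Gdap2, also above 0 (0.63 ± 0.15), rose in Cre livers (log2 0.49, limma adjusted p = 0.0284), while its constitutive effect was -0.14.

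**Figure D2:**
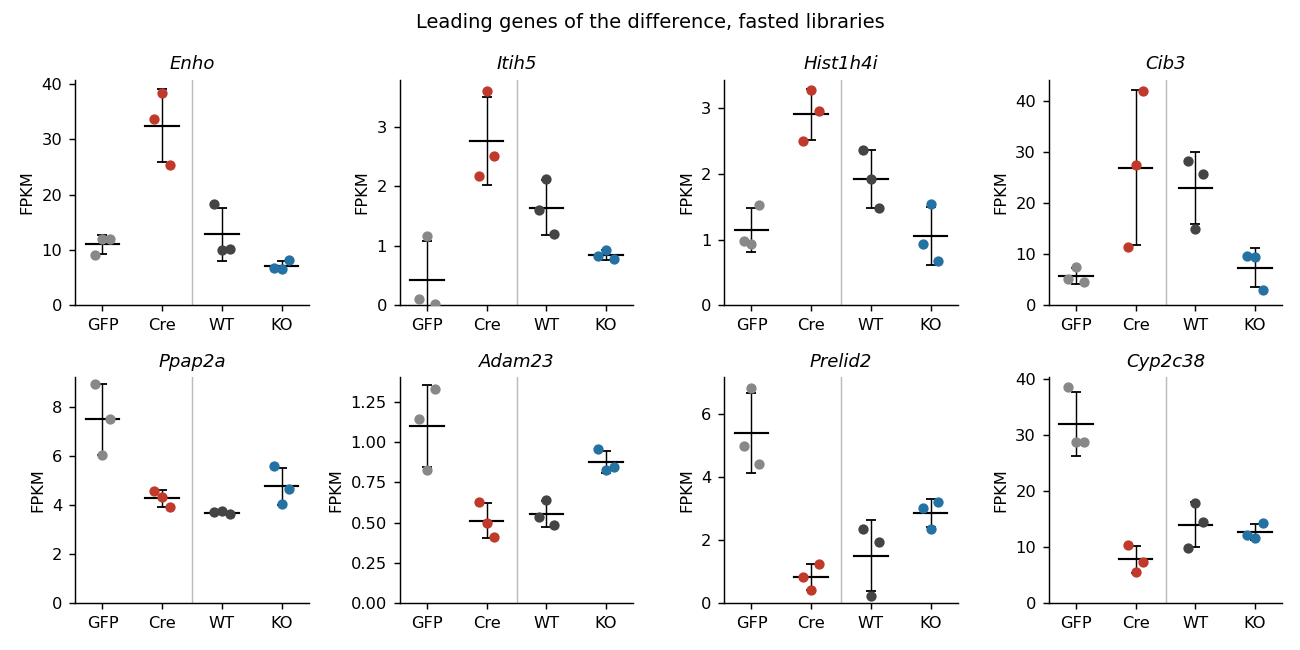
FPKM of 8 of the 30 leading genes in each fasted library; points are libraries, horizontal lines means and error bars SD (n = 3), cut at 0 for Itih5. Enho, Itih5, Hist1h4i and Cib3 (top) were higher in Cre than in GFP and lower on average in KO than in WT, and Ppap2a, Adam23 and Prelid2 (bottom) showed the reverse; Cyp2c38 was lower in Cre and near its control in KO.

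On the other side, Ppap2a, a lipid phosphate phosphatase of the cell surface, was at 8.91, 6.03 and 7.49 FPKM in GFP and 4.57, 4.31 and 3.89 FPKM in Cre livers, against 3.69, 3.73 and 3.62 FPKM in wild type and 5.56, 4.05 and 4.64 FPKM in KO livers. The GFP livers stood above the other 3 groups. Ppap2a fell with acute loss (log2 -0.68, limma adjusted p = 0.00898), and the difference of effects was -0.97 ± 0.17 (adjusted p = 0.0636). The controls themselves differed by 0.84 (limma adjusted p = 0.0128), while the knockouts differed by -0.12 (adjusted p = 0.658). Adam23, an ADAM family member that acts in cell adhesion, had lower values, at 1.14, 0.827 and 1.33 FPKM in GFP, 0.628, 0.496 and 0.412 FPKM in Cre, 0.533, 0.641 and 0.486 FPKM in wild type and 0.957, 0.827 and 0.847 FPKM in KO livers. It fell with acute loss (log2 -0.47, limma adjusted p = 0.0236), its KO libraries lay above wild type, and its difference was -0.74 ± 0.14 (adjusted p = 0.0642).

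Prelid2 and 2 cytochrome P450 genes were also among the leading genes below 0. Prelid2 was at 4.97, 6.83 and 4.39 FPKM in GFP, 0.821, 0.4 and 1.24 FPKM in Cre, 2.36, 0.216 and 1.93 FPKM in wild type and 3.02, 2.34 and 3.21 FPKM in KO livers. It fell in Cre livers (log2 -1.82, limma adjusted p = 0.0236) and its KO libraries overlapped wild type; the difference was -2.57 ± 0.53 (interval -3.68 to -1.45, adjusted p = 0.111). Cyp2c38, a member of a family of closely related P450 genes whose reads may be shared, was at 38.6, 28.7 and 28.7 FPKM in GFP, 10.3, 5.58 and 7.39 FPKM in Cre, 9.73, 17.8 and 14.4 FPKM in wild type and 12.1, 11.5 and 14.2 FPKM in KO livers. It fell in Cre livers (log2 -1.94, limma adjusted p = 0.00173) with a constitutive effect of -0.10, which gave a difference of -1.83 ± 0.39. Cyp2g1 had an acute effect of -0.71 and a constitutive effect of 0.52, with libraries separate in both models in opposite directions. Its difference was -1.23 ± 0.26, and its controls were apart by 1.12 (limma adjusted p = 0.0404).

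A difference of effects can come from the knockouts, the controls or both, and the leading genes were of each kind. For 22 of the 30 the knockouts of the models were farther apart than the controls, and for 8 the controls were. The knockout libraries of the 2 models did not overlap for 26 of the 30 and the control libraries for 13. The matching shares over all genes were not taken, and selection by the difference favours such gaps. These counts therefore describe the 30 genes and do not show that they are unusual. Over all genes, 166 (1.55%) were called between Cre and KO livers, 56 higher (0.524%) and 110 lower (1.03%) in Cre, and 11 (0.103%) between GFP and wild type livers; leaving out single libraries gave 27 (KO fasted 1) to 211 (GFP fasted 2) and 0 (GFP fasted 1, WT fasted 1 or 2) to 14 (GFP fasted 3). For Enho the knockouts differed by 2.03 (limma adjusted p = 0.00151) and the controls by -0.16, while for Irs2, described further on, the knockouts differed by 0.03 and the controls by 0.94. These comparisons share libraries with the difference of effects and are its parts, not further evidence for it.

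Oit3, Stab1, Gpr182 and Fcgr2b, 4 of the 24 leading genes below 0, were in the list of 12 sinusoidal endothelial markers. A further 7 are known from endothelial cells but lay outside that list, and they were grouped here after their ranks were seen. They were Ptprb, a phosphatase of endothelial junctions, and Esam, an adhesion molecule there, with Erg, Ramp2, Npr1, Gpr116 and Eltd1. Erg is a transcription factor of endothelial cells, Ramp2 a subunit of the adrenomedullin receptor, Npr1 a natriuretic peptide receptor, and Gpr116 and Eltd1 are adhesion receptors. The differences of these 11 genes ran from -0.81 (Eltd1) to -1.52 (Oit3).

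Oit3, a protein of liver sinusoidal endothelium, was at 7.38, 3.61 and 6.67 FPKM in GFP, 3.61, 1.89 and 1.57 FPKM in Cre, 2.36, 3.05 and 3.93 FPKM in wild type and 4.75, 4.01 and 5.40 FPKM in KO livers. KO libraries lay above wild type, and GFP fasted 2 and Cre fasted 1 met at the same level. Oit3 fell with acute loss (log2 -1.04, limma adjusted p = 0.0243), and its difference was -1.52 ± 0.31 (interval -2.17 to -0.88, adjusted p = 0.111, and 0.00913 to 0.369 over 23 alternatives). Ptprb was at 3.77, 2.52 and 3.84 FPKM in GFP, 2.12, 1.85 and 1.1 FPKM in Cre, 1.91, 2.02 and 2.30 FPKM in wild type and 3.58, 2.49 and 3.06 FPKM in KO livers, separate in both models and in opposite directions. It fell in Cre livers (log2 -0.71, limma adjusted p = 0.0255) and differed by -1.09 ± 0.21 between models (adjusted p = 0.0933).

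The rest of the endothelial list had values in the same direction. All 12 markers had a difference below 0, against 54.9% of all genes, with a median of -0.95 against -0.02, and 11 of the 12 had an unadjusted p under 0.05 in that direction (5.05% of all genes did). All 12 were below 0 in the acute effect (median -0.54; 51.8% of all genes were below 0) and above 0 in the constitutive effect (median 0.37; 56% were above 0). In the acute effect 1 marker, Oit3, was called (1.35% of all genes) and in the constitutive one 0 (0.0187%). Knockout and control libraries were separate for 2 of the 12 in the acute model (18.6% of all genes) and for 10 in the constitutive one (12.3%). Markers of 1 cell type are not independent of each other, and the list was written with earlier results of these data known. These counts therefore describe the markers and test nothing. Their summed level was 99.9, 49.9 and 97.9 FPKM in GFP, 61.1, 41.0 and 30.1 FPKM in Cre, 52.3, 60.5 and 59.7 FPKM in wild type and 85.3, 72.0 and 83.6 FPKM in KO livers. The KO livers lay above wild type without overlap. The acute groups overlapped only in that GFP fasted 2 (49.9 FPKM) lay below Cre fasted 1 (61.1 FPKM). No marker of this list was at 0 in any fasted library. In whole liver fewer cells of a type and less RNA per cell cannot be told apart.

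Leaving out a library changed the calls but not the direction. Without GFP fasted 2, 8 of the 12 endothelial markers were called in the difference (45 genes in all), and without Cre fasted 1, 5 were (30 genes in all). These libraries were picked out by the same markers, as the GFP library of lowest and the Cre library of highest sum. Dropping either therefore favours calls of these markers, so the added calls are no support. With any other single fasted library left out, 0 genes were called. The median over the list lay between -0.83 and -1.30 in all alternatives, and each marker kept was below 0 in each. The same 2 libraries held more haemoglobin and other erythroid RNA than the rest of their groups: the summed erythroid markers were 30.8, 200.3 and 35.4 FPKM in GFP and 248, 148 and 100.2 FPKM in Cre livers, against 246 to 627 FPKM in the constitutive livers. Its part in the endothelial result was not tested.

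**Figure D3:**
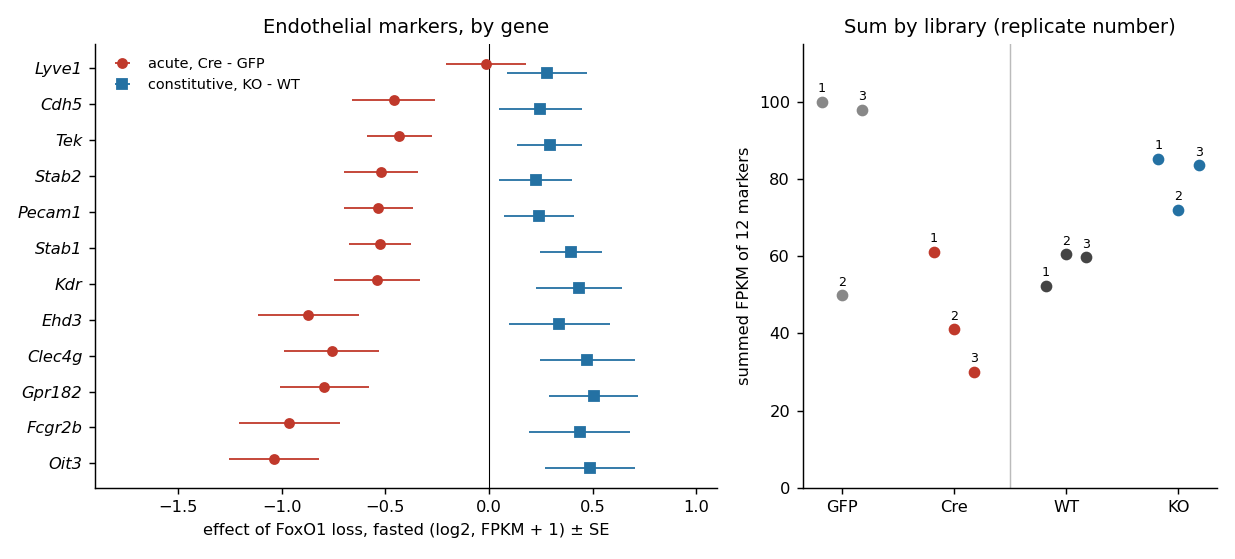
Left, acute and constitutive effects (log2, FPKM + 1, ± SE) of the 12 sinusoidal endothelial markers in fasted livers. Right, the summed FPKM of the 12 markers in each fasted library, numbered by replicate; each marker was below 0 in the acute and above 0 in the constitutive effect, and GFP fasted 2 (49.9 FPKM) lay among the Cre libraries.

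Markers of Kupffer and stellate cells went the same way with smaller values, which was not so for every other cell type. The 3 cholangiocyte markers kept were above 0 (median 0.09, -0.05 to 0.44 over the alternatives). Of the 5 erythroid markers kept, 2 were above and 3 below 0 (median -0.05, -0.17 to 1.65 over the alternatives). The few dendritic cell (3, median -0.33), neutrophil (2, median -0.45) and lymphocyte (1, -0.20) markers kept were all below 0. Of 2 adipocyte and 2 pancreatic acinar markers kept, 1 each was above and 1 below 0. Over all genes, 54.9% were below 0, and 5.05% were so at an unadjusted p under 0.05 (limma). All 11 markers of Kupffer cells and macrophages kept were below 0 (median -0.41, and -0.17 without WT fasted 1; 2 at an unadjusted p under 0.05), as were all 11 of stellate cells and fibroblasts (median -0.41, -0.17 without GFP fasted 1 and -0.65 without the deeper acute libraries; 3 at an unadjusted p under 0.05). Fcna, a Kupffer cell lectin, gave -0.86 ± 0.34 and Dcn, the matrix proteoglycan decorin, -0.62 ± 0.29 (limma adjusted p = 0.519 and 0.616). Of the 34 endothelial, Kupffer and stellate markers kept, 33 were above 0 in the constitutive and 27 below 0 in the acute effect. The summed Kupffer markers were 64.2 to 93.1 FPKM in GFP, 62.2 to 98.2 FPKM in Cre, 105.5 to 183 FPKM in wild type and 180.2 to 242 FPKM in KO livers, so that the groups of each model overlapped. The 10 genes that define hepatocytes, which check the labelled tissue, had a median difference of -0.06 and summed to 72017 to 82254 FPKM in all fasted libraries.

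Several genes of glucose release, FoxO1's best known work in liver, had lower values in both knockouts, and none passed the test of the difference. Slc37a4, the transporter that brings glucose 6-phosphate to its phosphatase, was at 119, 117 and 119.9 FPKM in GFP, 73.7, 63.7 and 81.4 FPKM in Cre, 109.8, 121 and 95.2 FPKM in wild type and 79.2, 70.1 and 79.4 FPKM in KO livers. Knockouts were separate from controls in both models. It fell in the acute model (log2 -0.70, limma adjusted p = 0.00168), had a constitutive effect of -0.50 (limma adjusted p = 0.0867), and the effects differed by -0.20 ± 0.13 (interval -0.47 to 0.08).

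G6pc, which encodes the phosphatase that frees glucose, and whose promoter is printed above, was at 167, 177 and 191 FPKM in GFP, 49.0, 54.5 and 78.2 FPKM in Cre, 362, 189 and 217 FPKM in wild type and 169.6, 161 and 87.7 FPKM in KO livers. Both knockouts lay below their controls without overlap, and wild type varied most. It fell 2.95-fold in the acute model (log2 -1.57, limma adjusted p = 0.0414), its constitutive effect was -0.87 (adjusted p = 1), and the difference was -0.70 ± 0.53 (interval -1.80 to 0.40). Pck1, the enzyme that starts gluconeogenesis from oxaloacetate, gave -0.90 and -0.43 (difference -0.48, interval -1.31 to 0.36), with neither effect called. Over the 15 genes of gluconeogenesis and glucose release the median was -0.52 in the acute and -0.12 in the constitutive effect. In the acute effect 9 of the 15 were below 0 (51.8% of all genes), and 2 were called lower (0.73%). Of the 15 differences 10 were below 0 (54.9% of all genes), and 1, that of Slc25a25, had an unadjusted p under 0.05 (limma, 7.85%). The median difference was -0.17 (-0.28 to 0.04 over the alternatives, above 0 without Cre fasted 2).

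Cyp27a1, a bile acid enzyme, and Lipc, hepatic lipase, fell in the acute model (log2 -0.64 and -0.46, limma adjusted p = 0.00168 and 0.0160). Their constitutive effects of -0.37 and -0.21 had the same sign, and their differences were -0.27 (interval -0.53 to -0.01) and -0.25 (interval -0.52 to 0.01).

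For Igfbp1 and Irs2, the other promoters printed, knockout and control libraries were separate in 1 model each. Igfbp1, which binds insulin-like growth factors, was at 85.5, 43.6 and 78.4 FPKM in GFP, 19.1, 56.8 and 82.2 FPKM in Cre, 59.1, 68.1 and 50.2 FPKM in wild type and 26.8, 20.9 and 16.5 FPKM in KO livers. The acute groups overlapped, with Cre fasted 1 below all GFP libraries, and the constitutive groups did not overlap. The effects were -0.56 and -1.44 with neither called (limma adjusted p = 0.716 and 0.988), and the difference of 0.88 ± 0.79 had an interval from -0.77 to 2.54.

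Irs2, which carries the signal of the insulin receptor, was at 3.43, 3.78 and 5.51 FPKM in GFP, 1.96, 1.81 and 1.64 FPKM in Cre, 1.80, 1.58 and 1.70 FPKM in wild type and 2.41, 1.89 and 1.07 FPKM in KO livers. The GFP livers stood above the other 3 groups, which overlapped. Irs2 fell in the acute model (log2 -0.88, limma adjusted p = 0.0308) and its constitutive effect was 0.02, with a difference of -0.91 ± 0.28 (interval -1.49 to -0.32, adjusted p = 0.335, and 0.201 to 0.632 over 23 alternatives). Its controls differed by 0.94 (limma adjusted p = 0.0768).

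**Figure D4:**
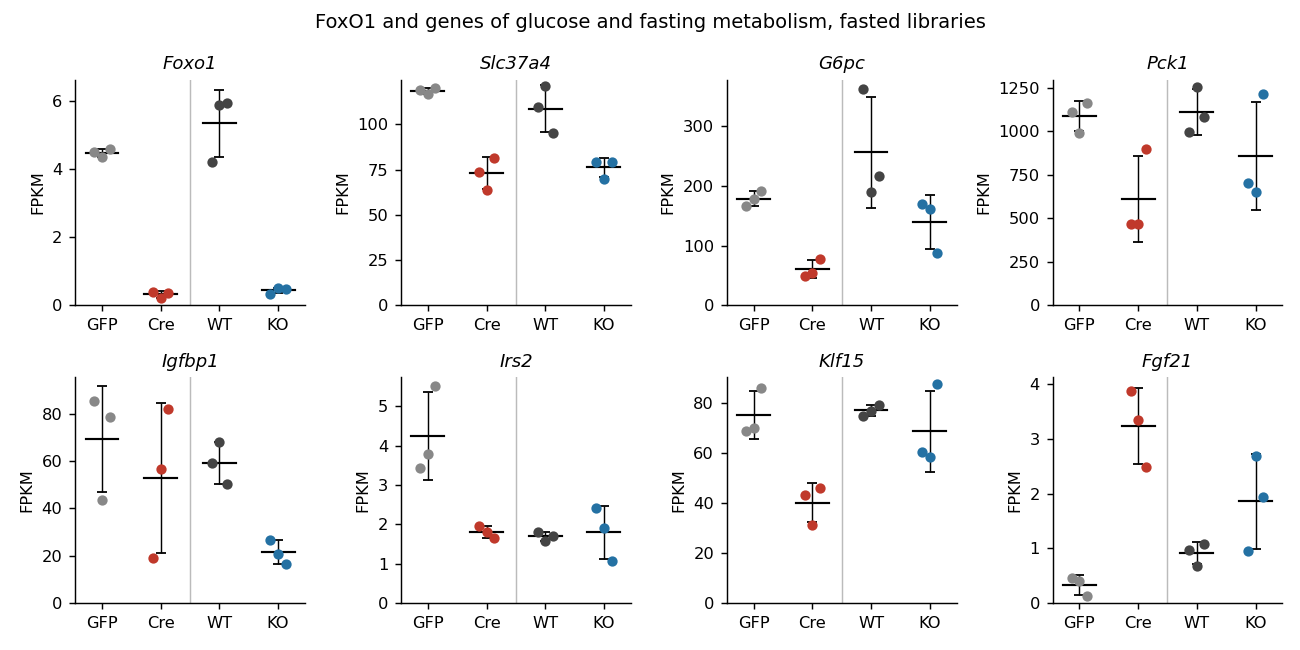
FPKM of Foxo1 and 7 genes of glucose and fasting metabolism in each fasted library; points are libraries, horizontal lines means and error bars SD (n = 3). Knockouts lay on the same side of their controls, without overlap, in both models for Foxo1, Slc37a4 and G6pc; knockout and control did not overlap in the constitutive model alone for Igfbp1 and in the acute model alone for Pck1, Irs2, Klf15 and Fgf21.

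Over the 20 genes listed as FoxO1 targets of hepatocytes, 12 differences were below 0 and 8 above, with a median of -0.19, and 3 had an unadjusted p under 0.05 (7.85% of all genes). Besides Irs2 these were Klf15, a transcription factor of amino acid catabolism in fasting, and Pdk4, the kinase that turns off pyruvate dehydrogenase. Klf15 was at 68.8, 70.0 and 85.9 FPKM in GFP, 43.1, 31.2 and 45.8 FPKM in Cre, 74.8, 76.8 and 79.2 FPKM in wild type and 60.1, 58.3 and 87.3 FPKM in KO livers. Cre livers stood below the other 3 groups; Klf15 fell there (log2 -0.90, limma adjusted p = 0.00898), and the difference was -0.71 ± 0.23 (adjusted p = 0.370). Pdk4 rose in Cre livers (log2 1.16, limma adjusted p = 0.0285), against the direction in which FoxO1 is known to act on it, with 1.13, 5.88 and 3.50 FPKM against 0.963, 0.713 and 0.757 FPKM in GFP. Its constitutive effect was 0.02 and the difference 1.14 ± 0.36 (limma adjusted p = 0.368, and 0.0108 to 0.698 over 22 alternatives).

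Fgf21 and Asns, genes of the integrated stress response, rose in the acute model. Fgf21, a hormone that liver secretes in fasting, was at 0.453, 0.408 and 0.128 FPKM in GFP, 3.87, 3.35 and 2.48 FPKM in Cre, 0.974, 0.680 and 1.08 FPKM in wild type and 0.944, 2.68 and 1.94 FPKM in KO livers. Its acute effect was 1.67 (limma adjusted p = 0.00168), its constitutive effect 0.54, and the difference 1.13 ± 0.33 (adjusted p = 0.303). Asns, asparagine synthetase, gave 2.26 and 0.67 (limma adjusted p = 0.00898 for the acute effect) and a difference of 1.59 ± 0.56 (adjusted p = 0.444). The list as a whole did not share this: 8 of its 13 genes were below 0, with a median of -0.08 (-0.24 to 0.01 over the alternatives).

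Lipid synthesis genes lay higher in the acute than in the constitutive effect. Of 19 genes of cholesterol synthesis 17 were above 0 (median 0.46; all genes, 45.1% above 0), 17 were above 0 in the acute effect (48.1% of all genes), and 18 below 0 in the constitutive one (44%). The median was 0.20 without GFP fasted 3, 0.29 without WT fasted 1 and 0.21 without the deeper acute libraries. No member was called in either arm, and Hmgcs1, which starts the pathway, showed the spread: 144, 108 and 45.5 FPKM in GFP against 141, 204 and 139 FPKM in Cre livers. Of 16 genes of fatty acid synthesis 12 were above 0 (median 0.31). Fads2, the desaturase of the first step to long polyunsaturated fatty acids, was at 166, 166 and 179 FPKM in GFP and 297, 312 and 299.9 FPKM in Cre livers, and at 161, 212 and 235 FPKM in wild type and 173, 188 and 221 FPKM in KO livers. Cre livers stood above all others; Fads2 rose there (log2 0.83, limma adjusted p = 0.0166), its constitutive effect was -0.05, and the difference was 0.88 ± 0.23 (adjusted p = 0.233).

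Genes that glucocorticoids raise lay lower in the acute effect. Of 12 such genes 11 were below 0 in the difference (54.9% of all genes). The median difference was -0.77, and -0.48 without Cre fasted 2, -0.46 without KO fasted 3 and -0.42 without the deeper acute libraries, with medians of -0.60 in the acute and -0.01 in the constitutive effect. Per1, which is also a clock gene, was the 1 member with an unadjusted p under 0.05 and fell in Cre livers (log2 -1.14, limma adjusted p = 0.0333; difference -1.0 ± 0.36, adjusted p = 0.468). Tat, tyrosine aminotransferase, gave -1.15 and -0.38, neither called. Of 15 clock genes 14 were below 0 (median -0.25, and -0.42 without WT fasted 2). Immediate early genes lay the other way, 10 of 14 above 0 (median 0.30, 0.09 without Cre fasted 3, 0.18 without GFP fasted 3 and 0.19 with no filter): Jun and Fos rose in Cre livers (log2 1.41 and 1.13, limma adjusted p = 0.0361 and 0.0235), with constitutive effects of 0.30 each and differences of 1.11 ± 0.46 and 0.82 ± 0.33 (adjusted p = 0.550 and 0.522).

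Male-biased liver genes had values apart in the controls as well. Of 16, 14 were above 0 in the difference (45.1% of all genes), and the median between GFP and wild type livers was -1.02. The median difference was 0.72, and 0.20 without GFP fasted 1, 0.48 without Cre fasted 1 and 0.47 with array weights; the summed level was 2693 FPKM in GFP fasted 1 against 6676 and 6052 FPKM in the other GFP libraries. Of 11 female-biased genes 8 were below 0, with a median of -0.39 (-1.12 to -0.01 over the alternatives) and a median of 1.17 between GFP and wild type livers. Mup20, a urinary protein gene, had the smallest p of the male-biased genes. It was at 926 to 1492 FPKM in GFP and 1428 to 4219 FPKM in Cre livers. In wild type it was at 2245 to 4646 FPKM and in KO livers at 1344 to 2018 FPKM. Its difference was 2.07 ± 0.68 (limma adjusted p = 0.376). The groups overlapped in the acute model. Major urinary protein genes are near-identical copies, so the value of any single one is uncertain. The sex of the mice is not in the labels, and whether the groups differed in it was not tested.

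**Figure D5:**
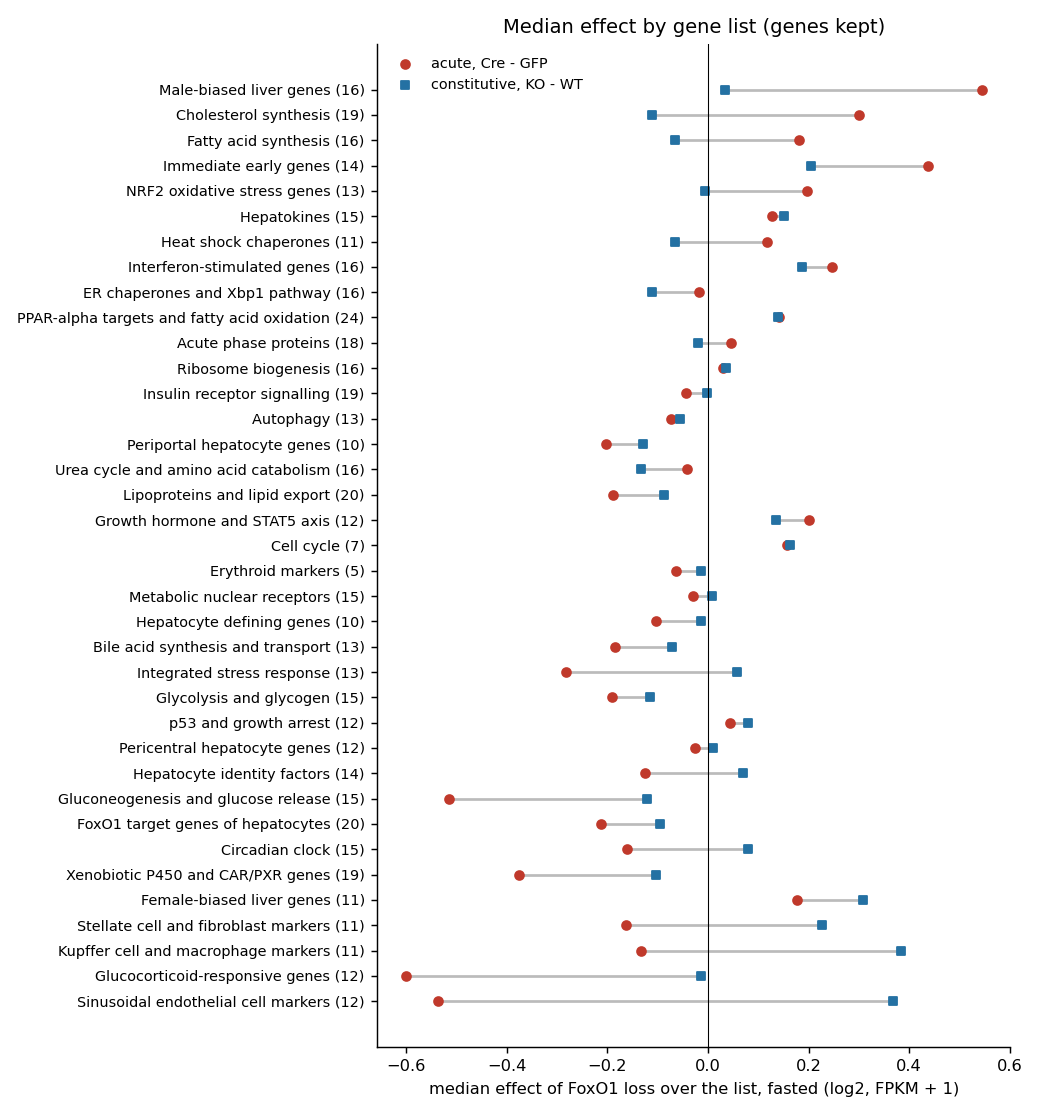
Median acute (red circles) and constitutive (blue squares) effect over each of 37 lists with at least 5 genes kept, ordered by the median difference, on log2(FPKM + 1). The grey bar joins the 2 medians; it was longest for sinusoidal endothelial markers, with the medians on opposite sides of 0.

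In 16 of the 32 pathway lists the median difference was under 0.1 in size, among them insulin receptor signalling (0.01), lipoproteins and lipid export (-0.03), urea cycle and amino acid catabolism (-0.02) and targets of PPAR-alpha (0.07). In 3 it was 0.4 or more. A median near 0 can hide members that moved in opposite directions. Of the 24 PPAR-alpha targets kept, 5 had an unadjusted p under 0.05 (limma, 7.85% of all genes), 3 below and 2 above 0. No member of any list was called in the difference (0% of all genes). The metabolic genes named whatever their result showed wide intervals: Srebf1, the regulator of lipogenesis, -0.18 (interval -1.02 to 0.65), Cyp7a1, the first enzyme of the classic bile acid pathway, 0.21 (-0.65 to 1.07), Cyp8b1, which sets the kind of bile acid, 0.64 (-0.21 to 1.49), and Ppargc1a, a coactivator of gluconeogenesis, -0.44 (-0.90 to 0.01).

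The same difference was taken in the refed livers, which are separate libraries (fasted 4 h and refed 1 h). It was called for 0 of 10682 genes (limma; 1165, 10.9%, at an unadjusted p under 0.05). Of the 30 leading genes of the fasted state 22 had the same sign when refed, as had 52.8% of all genes, 5 had an unadjusted p under 0.05, and all 30 had a smaller value. Selection of the genes by their fasted difference favours a smaller value in other libraries. Their median size was 1.05 fasted and 0.17 in the same direction when refed. Enho kept its direction (0.84, limma unadjusted p = 0.0370), as did Esam (-0.53, limma unadjusted p = 0.00871). Ppap2a gave -0.34, and Ptprb and Gimap4 lay near 0 (0.11 and 0.01). Prelid2 was on the other side (1.34 against -2.57).

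The endothelial markers had smaller differences in the refed livers. Their median difference was -0.10, 10 of 12 were below 0 (48.3% of all genes were) and 0 had an unadjusted p under 0.05 (limma). The fasted and refed differences were tested against each other: 0 genes were called (836, 7.83%, at an unadjusted p under 0.05). Such an unadjusted p was found for 7 of the 12 endothelial markers, which are not independent of each other. Cholesterol synthesis genes had a median of 0.46 fasted and -0.33 refed, and male-biased genes one of 0.72 fasted and 1.57 refed. Irs2 had opposite signs, -0.91 fasted and 0.63 refed, with an unadjusted p of 0.001 and an adjusted p of 0.482 (limma) for the difference between states.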

How the data were processed

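The deposited files give 1 FPKM value per gene locus and library, made by the authors. Cuffdiff, Cufflinks and HISAT2 are named, without versions, in the submitters' processing notes, as is mm10; strand handling is not given in the sources used. Groups and replicate numbers come from the sample titles. Of 23746 loci, 14 with a failed estimate were left out and genes with an FPKM of at least 1 in at least 3 of the 24 libraries were kept (10682). Values were fitted as log2(FPKM + 1), which understates changes of low genes, in R 4.3.3 by limma 3.58.1 (linear model, contrasts, and eBayes with its trend option), with 1 coefficient for each of the 8 groups, so that all 24 libraries share 1 estimate of spread (16 residual degrees of freedom). Two-sided p-values were adjusted by Benjamini-Hochberg over the 10682 genes, and genes were called at 0.05. A plain fold is a ratio of mean FPKM, and intervals are 95%.

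The comparison, its gene lists (43, with 548 genes) and the rule for named genes were chosen with earlier results of these data known. The rule named Foxo1, the 30 genes of smallest p since fewer than 20 were called, 14 further genes whatever their result, and up to 4 genes of each list by smallest p. B930025P03Rik lies outside it, and a few genes it named are not reported here. On simulated data 200 genes were changed, and 5 of 10482 unchanged genes were called. Lists are described by counts and medians and were not tested. Figures and text tables were made with Python 3.11.15, pandas 2.3.3 and matplotlib 3.10.9. Promoters are from RefSeq (GRCm38.p6).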

Additional observations from a re-analysis of the deposited data

How the results depend on the processing

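The alternatives were calls at adjusted p under 0.01 or 0.10, pseudocounts of 0.1 and 0.5, no filter, an FPKM of at least 1 in all 12 fasted libraries, median-of-ratios scaling, the 12 fasted libraries fitted alone, array weights, robust eBayes, the replicate block, a depth covariate, leaving out the deeper acute libraries, and leaving out each fasted library. The fasted difference of effects stayed at 0 calls under most; it reached 7 at adjusted p under 0.10, 4 with array weights, 4 with robust eBayes, 9 with the depth covariate, 4 without the deeper libraries, and 0 to 45 with single libraries left out. The acute effect (144 calls) gave 27 and 321 at 0.01 and 0.10, 76 with no filter, 32 without the deeper libraries and 22 to 149 with single libraries left out. The constitutive effect (2) gave 5 at 0.10, 1 with a pseudocount of 0.1, 0 with the stricter filter (limma; Foxo1 does not pass that filter), 4 with median-of-ratios scaling, 24 with array weights and 1 to 3 with single libraries left out. The controls (11) gave 0 and 20 at 0.01 and 0.10, 2 and 3 with pseudocounts of 0.1 and 0.5, 3 with no filter, 2 with the stricter filter, 3 with median-of-ratios scaling, 2 in the fasted libraries alone, 18 with array weights, 3 with robust eBayes, 5 with the depth covariate and 0 to 14 with single libraries left out. The knockouts (166) gave 24 and 502 at 0.01 and 0.10, 648 with array weights, 38 with the depth covariate, 393 without the deeper libraries and 27 to 211 with single libraries left out. The refed difference (0) gave 1 at 0.10, with the stricter filter, with robust eBayes and with the depth covariate, and 0 to 2 with single libraries left out. The change of the difference between states (0) gave 1 at 0.10, with the stricter filter and with the depth covariate, and 0 to 1 with single libraries left out. The causes were not tested.

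Of 2139 values of 90 genes under these alternatives, 2066 kept their direction and side of the threshold, 70 passed it where the reported value did not (26 genes), and 3 turned their sign: Foxo1 (-0.12 with a pseudocount of 0.1), Foxo3 (0.0594 without GFP fasted 3; -0.354 to 0.0594 over single libraries left out) and Cyp7a1 (-0.15 without WT fasted 1; -0.15 to 0.44). None of these 3 was called in the difference.

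Replicate numbers did not pair fasted controls with fasted knockouts. Deviations from the group means correlated between same-numbered libraries at -0.34 to 0.21 over 6 pairs. Not every library correlated best with its own number. Larger values lay between different numbers: 0.449 for GFP fasted 3 with Cre fasted 1, the deeper acute libraries, and -0.485 for GFP fasted 3 with Cre fasted 2. With the replicate block the fasted difference had 0 calls, the controls 0, the knockouts 14 and the refed difference 1 (limma). Pairing of fasted with refed libraries was not tested. Depth did follow the number across feeding states: GFP 3 was at 1.30 fasted and 1.37 refed, and Cre 1 at 1.16 and 1.31.

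Acute libraries of low depth give noisier values at low FPKM, and total depth is unknown. With 3 libraries a group, the simulated recovery of 1.5-fold changes was 20.9%, so absent calls do not show equal effects. Differences of virus, depth and any batch between models cannot be told apart from the model in the comparisons of controls or of knockouts. In the difference of effects, the way Cre was delivered and the kind of control cannot be told apart from the time of deletion.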

Other observations

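Interferon-stimulated genes were above 0 in both effects: all 16 genes kept in the constitutive effect (median 0.19; 56% of all genes were above 0) and 12 of 16 in the acute effect (median 0.25; 48.1% of all genes). Their difference of effects had a median of 0.09 (-0.07 to 0.16 over the alternatives, below 0 without GFP fasted 2 or WT fasted 1), with 9 of 16 above 0 and 0 at an unadjusted p under 0.05 (limma; 0 called). Ifit1, an antiviral protein, was at 2.59, 1.32 and 2.25 FPKM in GFP and 3.43, 4.46 and 3.36 FPKM in Cre livers, and at 2.60, 1.58 and 2.09 FPKM in wild type and 2.61, 2.60 and 2.42 FPKM in KO livers. Its Cre libraries lay above its GFP libraries without overlap, and its KO and wild type libraries overlapped. Neither effect was called (log2 0.65 and 0.21, limma adjusted p = 0.228 and 1), and the difference was 0.44 with an interval from -0.31 to 1.19.

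Cyp2b10, a P450 enzyme of drug metabolism, was at 15.2, 9.80 and 13.4 FPKM in GFP, 2.13, 2.04 and 3.97 FPKM in Cre, 5.53, 19.2 and 6.27 FPKM in wild type and 4.97, 3.95 and 3.07 FPKM in KO livers. Knockouts lay below controls without overlap in both models. It fell 4.72-fold in the acute model (log2 -1.91, limma adjusted p = 0.0271), its constitutive effect was -1.0 (adjusted p = 1), and the difference of -0.91 had an interval from -2.14 to 0.31. Over 19 xenobiotic P450 and receptor target genes the median difference was -0.26 (-0.34 to -0.05 over the alternatives, nearest 0 without WT fasted 1). Of these, 14 were below 0 (54.9% of all genes). An unadjusted p under 0.05 (limma) was found for 4 (7.85% of all genes), 2 below and 2 above 0.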
